A study of Mus musculus with 3 samples.

Results

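The 5 mouse antitrypsin paralogs *Serpina1a*, *Serpina1b*, *Serpina1c*, *Serpina1d* and *Serpina1e* were followed in the cartilage cells of a bone-lining preparation. The members were chosen by gene symbol, and all 5 were found among the 32285 genes of the deposited tables. They were proposed for their level in cartilage cells of these same data, so their levels are given as a description and no test was made on them. Bone-lining cells (BLCs), found on bone surfaces, were profiled by droplet single-cell RNA-seq in wild-type mice, with bone marrow as the labelled source and no strain, age or sex in the labels. The cells were released with collagenase from iliac bones, tibias and femora whose marrow had been flushed out, and the Alcam+Sca-1- fraction outside the CD45, Ter119 and CD31 gates was sorted by flow cytometry. The 3 libraries, replicates 1, 2 and 3, make up 1 group, so there is no contrast between conditions, and the spread between libraries is the replicate error. Values are counts of unique molecular identifiers (UMIs), each standing for 1 captured RNA molecule, and levels are counts per 1e6 UMIs (CPM) of the summed cells.

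Antitrypsin is a secreted serpin, an inhibitor that offers an exposed loop as bait to a serine protease and traps the enzyme when it cuts the loop. The liver makes most of the antitrypsin in blood, and neutrophil elastase is its best known target. Humans carry a single functional *SERPINA1* gene, whereas the mouse has a row of tandem copies. The copies differ most in the reactive-centre loop, the part that selects the protease. Cartilage is an avascular tissue whose cells, chondrocytes, lie in layers from the lubricated joint surface to the columns and enlarged cells of the growth plate.

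The 5 genes lie on the minus strand of mouse chromosome 12 within 230.8 kb, at chr12:103728156-103958975 (GRCm38, GENCODE vM21 annotation). In the order of the coordinates they are *Serpina1b*, *Serpina1d*, *Serpina1a*, *Serpina1c* and *Serpina1e*. *Serpina1d* (chr12:103763594-103773592) lies inside the span of 1 long *Serpina1b* gene model (chr12:103728156-103830373). Each copy has 1239 coding bases in a 5-exon transcript. Coding identity between copies ranged from 96.3%, for *Serpina1e* against *Serpina1b* and *Serpina1d*, to 98.5% for *Serpina1a* and *Serpina1c*. The loop stretch is shown because it is the part that meets the protease. Its 75 coding bases start at coding base 1087, lie in exon 5 and are read 5′ to 3′ from the GENCODE transcripts, with capitals at the 18 positions where any copies differ.
Serpina1a, chr12:103853756-103853830: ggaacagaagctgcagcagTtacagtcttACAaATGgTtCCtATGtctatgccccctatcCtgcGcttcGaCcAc
Serpina1b, chr12:103728323-103728397: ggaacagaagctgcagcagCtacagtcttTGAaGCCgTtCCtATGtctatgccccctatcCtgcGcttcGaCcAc
Serpina1c, chr12:103895093-103895167: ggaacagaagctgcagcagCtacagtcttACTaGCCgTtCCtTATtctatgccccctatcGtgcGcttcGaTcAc
Serpina1d, chr12:103763761-103763835: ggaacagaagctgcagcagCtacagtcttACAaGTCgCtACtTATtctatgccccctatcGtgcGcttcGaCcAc
Serpina1e, chr12:103947099-103947173: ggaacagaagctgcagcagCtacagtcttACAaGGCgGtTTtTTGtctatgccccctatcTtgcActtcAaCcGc
In this stretch *Serpina1e* stood farthest from the rest, with 10 to 12 differing bases against each other copy. *Serpina1c* and *Serpina1d* were the closest pair with 5 differences, and *Serpina1a* and *Serpina1b* differed at 6.

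Because the copies are so alike, a sequenced fragment may fit several of them, and the counting program keeps a read only where it can be given to 1 gene. Reads of this kit start near the 3′ end of the RNA and were 91 bases long. Of the 410 windows of that length in the last 500 bases of each transcript, 21.5% were shared exactly with another gene for *Serpina1a*, with *Serpina1c* and the gene model *Gm8893* as the partners. The share was 14.6% for *Serpina1c*, 7.07% for *Serpina1d*, 3.41% for *Serpina1b* and 0 of 410 windows for *Serpina1e*. With 1 mismatch allowed against the other members, the shares lay between 6.34% for *Serpina1e* and 44.1% for *Serpina1a*. Most windows were unique to 1 copy, but molecules of the copies with more shared windows can be lost or given to the wrong copy, so the levels of different paralogs are uncertain against each other. Molecules of a 3′ kit are counted once whatever the length of the RNA, so CPM does not scale with transcript length.

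Windows of 60 bases around a run shared by all 5 promoters are shown, and the promoters were not compared base by base outside them. A link between these letters and the patterns over cells was not tested. In RefSeq promoter sequences (GRCm38.p6; all 5 members matched) each copy carries a run of 12 bases, in capitals in the 60-base windows that follow, whose first base lies 16 to 78 bases before the annotated start.
Serpina1a, chr12:103863605-103863664: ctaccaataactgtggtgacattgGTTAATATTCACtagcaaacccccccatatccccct
Serpina1b, chr12:103738180-103738239: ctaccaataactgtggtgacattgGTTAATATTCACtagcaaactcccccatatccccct
Serpina1c, chr12:103904942-103905001: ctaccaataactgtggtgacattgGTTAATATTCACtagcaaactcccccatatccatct
Serpina1d, chr12:103773614-103773673: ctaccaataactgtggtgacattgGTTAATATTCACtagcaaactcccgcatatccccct
Serpina1e, chr12:103956940-103956999: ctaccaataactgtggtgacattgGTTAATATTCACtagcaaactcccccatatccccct
The windows of *Serpina1b* and *Serpina1e* were identical, and 4 of the 60 positions differed among the copies. The 12-base run was found in no promoter other than these 5 of 32851. Its first part, GTTAAT, which overlaps it, was found on either strand in 7.099% of all promoters, each taken from 250 bases before to 50 bases after the start. TGTTTGC, a forkhead-type word, was found in the promoters of all 5 members and in 5.07% of all promoters. TTGCNNAA, a C/EBP-type word, was found in 4 members (not in *Serpina1c*) and in 10.8% of all promoters. The words were searched on both strands. A match describes letters and does not show a bound site.

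After filtering, 2476, 6363 and 9393 cells of replicates 1, 2 and 3 were kept, with median depths of 5614, 9704 and 5814 UMIs. Cells were clustered without the 5 members. Of 24 clusters, 10 were counted as cartilage from chondrocyte markers, which gave 12611 of 18232 kept cells, or 589, 4816 and 7206 cells of replicates 1, 2 and 3. *Acan*, the large cartilage proteoglycan, reached 2064 ± 676 CPM in these cells (SD, n = 3 libraries) against 299 ± 235 CPM in all other kept cells. *Sox9*, the chondrocyte master regulator, reached 1532 ± 150 CPM against 228 ± 137 CPM. Both genes are on the chondrocyte list used to choose these clusters, so their levels are no check of the label. *Alcam*, which the sort selected on, had 16.9 ± 8.43 CPM in cartilage cells and 58.2 ± 5.54 CPM elsewhere, and *Ptprc*, which encodes the CD45 excluded by the sort, had 0.132 ± 0.121 CPM in cartilage cells. Replicate 1 stood apart: 23.8% of its kept cells were cartilage cells against 75.7% and 76.7% in replicates 2 and 3, and its cartilage cells had 1350 CPM of *Col2a1*, the main cartilage collagen, against 30950 and 25830 CPM. Results are therefore also given without it. Between 5 and 28 cell barcodes were shared by pairs of libraries. Cell clusters are given by number and leading genes, and the error of a single library's level is an exact Poisson 95% interval that covers counting error only, as do the exact (Clopper-Pearson) binomial intervals given for shares.

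Most antitrypsin UMIs lay in the cells counted as cartilage. The summed level of the 5 copies in cartilage cells was 1334 CPM in replicate 1 (95% interval 1298 to 1372), 396 CPM in replicate 2 (391 to 401) and 420.5 CPM in replicate 3 (415 to 426), a mean of 717 ± 535 CPM (SD, n = 3), or 408 CPM without replicate 1. In all other kept cells it was 15.5, 33.6 and 53.2 CPM. The cartilage value exceeded that of the other cells in 3 of 3 libraries, but the members had been chosen for their level in cartilage cells. Cartilage cells held 3761009 of 20080429, 61788557 of 72286710 and 51665188 of 60373360 UMIs of all genes in replicates 1, 2 and 3. They held 95.2%, 98.6% and 97.9% of the libraries' antitrypsin UMIs. The split depends on doublet removal: without it 9387 cells met the cartilage rule, 56.4% of the UMIs lay in them (mean over libraries, against 97.2%), and the other cells had 301 CPM (against 34.1 CPM).

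*Serpina1a* stood at 370 CPM in the cartilage cells of replicate 1, 148 CPM in replicate 2 and 142 CPM in replicate 3. *Serpina1b* stood at 503, 91.5 and 107 CPM in the same order. *Serpina1d* stood at 235, 124 and 134 CPM. These 3 copies carried most of the signal, and replicate 1 was the high library for each of them. *Serpina1e* stood at 175, 26.6 and 31.5 CPM. *Serpina1c* was the lowest copy in every library, with 51.1, 5.57 and 5.96 CPM. The order of the upper copies was not the same in all libraries: *Serpina1b* led in replicate 1 with 37.7% of the antitrypsin UMIs, whereas *Serpina1a* led in replicates 2 and 3 with 37.4% and 33.9%. Over the libraries the mean shares were 33.0 ± 4.87% for *Serpina1a*, 28.7 ± 7.82% for *Serpina1b* and 26.9 ± 8.08% for *Serpina1d*. They were 9.12 ± 3.51% for *Serpina1e* and 2.22 ± 1.39% for *Serpina1c*, the lowest shares in each library. Shares of a library are parts of 1 whole, so these SDs do not serve to compare the copies. In replicates 2 and 3 *Serpina1d* came after *Serpina1a* with 31.4% and 31.8%, and then *Serpina1b* with 23.1% and 25.4%.

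**Figure D1:**
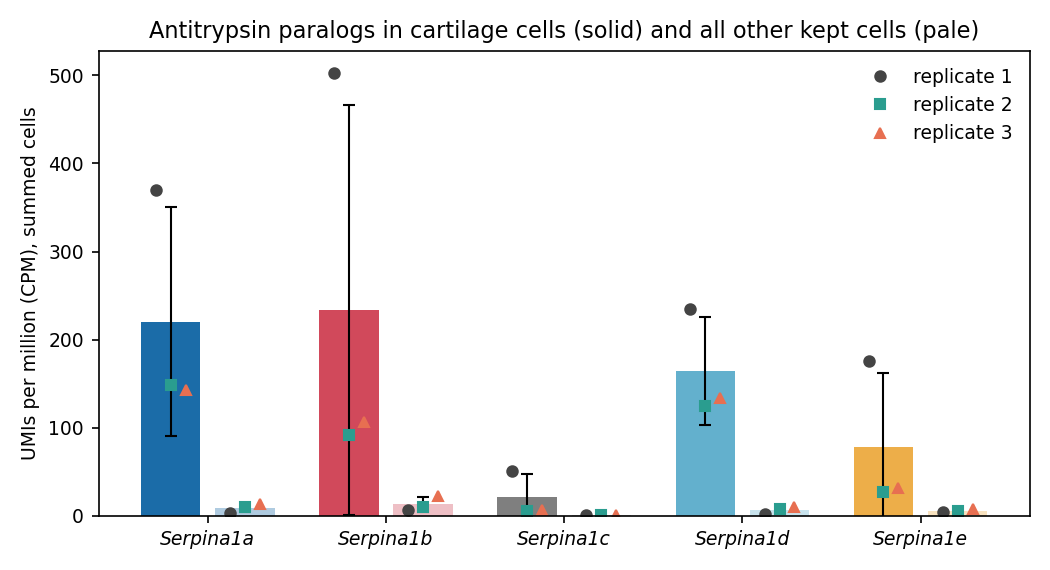
Level of each paralog (CPM) in the summed cartilage cells (solid bars) and in all other kept cells (pale bars). Bars are means of 3 libraries, error bars are SD and points are single libraries. Replicate 1 lies highest for each paralog in cartilage cells. The difference in CPM is largest for *Serpina1b*, with 503 CPM against 91.5 and 107 CPM.

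The share of cartilage cells with at least 1 antitrypsin UMI was 41.6%, 41.3% and 35.2% in replicates 1, 2 and 3, against 3.29%, 14.997% and 9.88% of other cells. The median depth was 5710, 11472.5 and 6638.5 UMIs in cartilage cells and 5569, 4259 and 2696 UMIs in other cells. When each cell was thinned to 1000 UMIs, which left out 18, 16 and 43 shallower cartilage cells and 110, 103 and 259 shallower other cells, the shares were 29.2%, 16.1% and 16.4% in cartilage cells and 0.844%, 5.26% and 4.62% in other cells. Blood cells are given for comparison, and whether they make the transcript themselves was not tested. Over all blood cells, with median depths of 9042, 16886 and 8314.5 UMIs, 3.66%, 13.3% and 8% had a UMI. Among blood types with at least 20 cells in a library the share ran from 2% in neutrophil-like cells of replicate 1 to 17.9% in erythroid-like cells of replicate 2. The unthinned share in cartilage cells was above that of all blood cells in 3 of 3 libraries. As the members were chosen for their level in cartilage cells, this is a description and no check. *Col2a1* UMIs were found in 98.6% and 96.1% of the non-cartilage cells of replicates 2 and 3, at 4953 and 4270.1 CPM, and in 6.2003% of those of replicate 1, at 103 CPM. The part of such cartilage RNA in the antitrypsin UMIs outside cartilage was not tested. In bulk sums of this kind, fewer cells with the RNA and less RNA per cell look alike, so shares of cells are given beside levels.

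Outside cartilage the named cell types held little antitrypsin. The osteoblast-like cells, which make bone, had 0 UMIs in 33 cells of replicate 1, which allows up to 19.8 CPM (3 counts, the limit used for each sum at 0), and 36.1 and 28.9 CPM in replicates 2 and 3. The CAR-like cells, the reticular cells that supply *Cxcl12*, had 17.4, 15.6 and 13.4 CPM, where 2 of 768 cells held 49 of 74 UMIs and the cluster fell from 16.9 to 5.73 CPM without them. The tendon-like cells had 6.02, 21.6 and 11.7 CPM. Several of the higher values came from very few cells. A single Schwann-like cell of replicate 1 held 57 of the 63 UMIs of its cluster, and without it the cluster fell from 153 to 14.8 CPM. In the mast or basophil-like cluster 4 of 328 cells held 88 of 110 UMIs, and without them it fell from 26.1 to 5.33 CPM. These 4 cells had a median of 19790.5 UMIs against 9008.5 in the whole cluster and 19118 CPM of *Acan* and *Col2a1* together against 636 CPM in the rest of the cluster. The Schwann-like cell had 1005 CPM of these cartilage genes against 505 CPM in the rest, the 2 CAR-like cells had 1247 against 264 CPM, and the high cells (at least 5 antitrypsin UMIs) of the unnamed clusters 9 and 11 had 1591 and 25829 CPM against 3044 and 28330 CPM. Of 2 unnamed clusters whose highest list score was for superficial cartilage, cluster 9 had 48.3, 22.7 and 42.2 CPM, and the shallow cluster 11 had 141 and 192 CPM in replicates 2 and 3.

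Within cartilage, 10 clusters differed widely in the summed level. Among sums of at least 20 cells, the highest value was in cluster 10, led by *Gbp2* and *Hs6st3*, with 58 cells found in replicate 1 alone. It had 6594 CPM (6310 to 6887) and at least 1 UMI in 98.3% of cells. Cluster 1 was led by *Efemp1*, *Spon1* and *Rgs6*, with *Sfrp5* (resting and Wnt-active lists) and *Lef1* (Wnt-active list) also among its leading genes. It had 563 and 503 CPM in replicates 2 and 3. Its 2033 CPM in replicate 1 rested on 54 cells, and 1 of them held 57.2% of the UMIs. Cluster 3 (*C1qtnf3*, *Epyc*, *Prkg2*), which scored highest on the columnar growth plate list, had 380 and 531 CPM. Cluster 5 (*Slurp1*, *Prg4*), whose own highest list score was for superficial cartilage, had 428 and 490.3 CPM. The order of clusters 1, 3 and 5 differed between replicates 2 and 3, so they were not ranked. Cluster 4 (*Angptl7*, *Gas1*, *Cilp*), also superficial by its list score, had 620 CPM in 60 cells of replicate 1 and 374 and 346 CPM in the others.

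Clusters 2, 6, 8 and 9 were lower. Cluster 2, led by *Ibsp*, which encodes bone sialoprotein, had 259 and 247 CPM in replicates 2 and 3 and 0 UMIs in 21 cells of replicate 1, which allows up to 14.8 CPM. Cluster 8, the cycling cells led by *Hist1h2ap* and *Top2a*, had 342 and 283 CPM. Cluster 6, with few UMIs (median 3186.5) and a high mitochondrial share (median 15.1%), had 182 and 96.5 CPM. Cluster 9 (*Msmp*, *Igfbp5*, *Ecm1*) was the lowest, with 23.9 CPM (14.2 to 37.8) in replicate 2 and 10.2 CPM (3.30 to 23.7) in replicate 3, below the 33.6 and 53.2 CPM of the non-cartilage cells. It also had the lowest *Acan* level of the 10 clusters, 403 CPM.

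**Figure D2:**
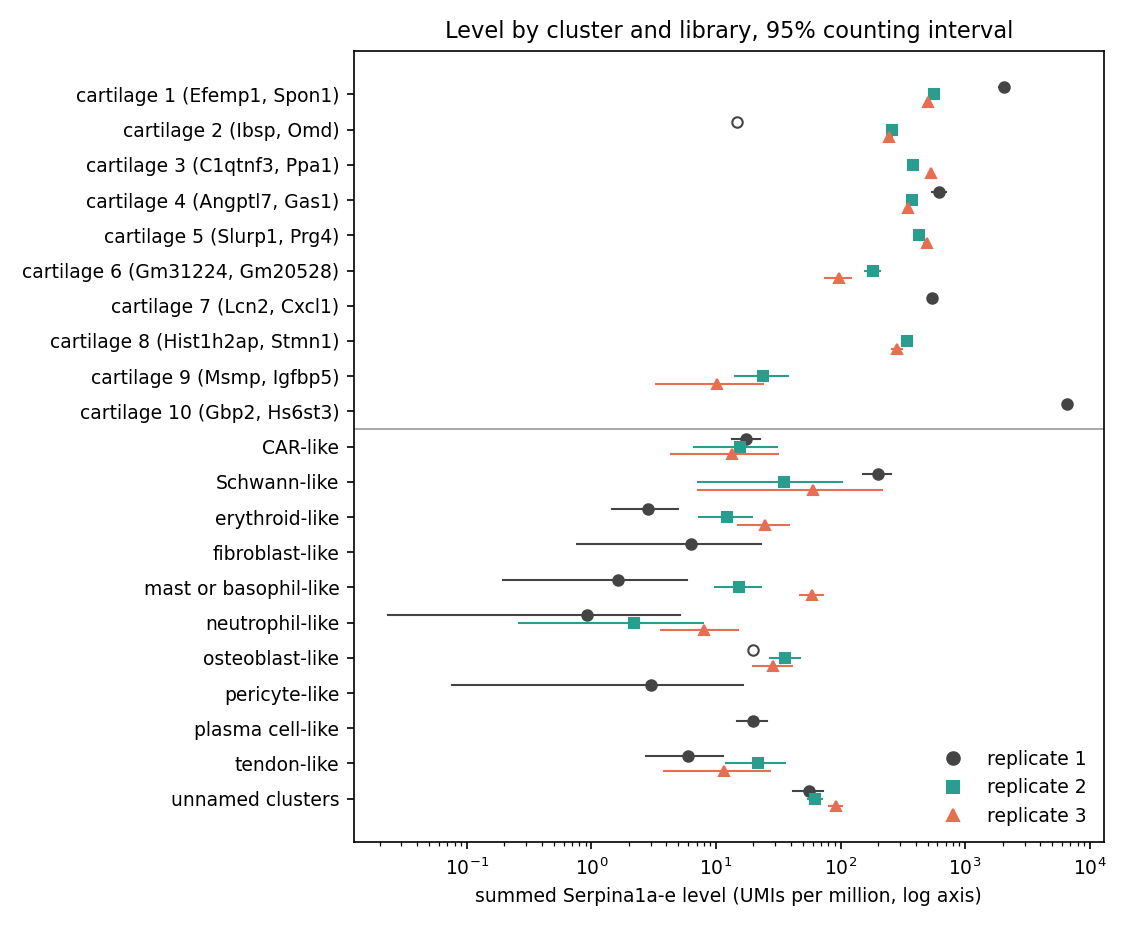
Summed level of the 5 paralogs (CPM, log axis) in each cartilage cluster (above the line, with its first leading genes) and in the other groups of cells, unnamed clusters included (below it), for sums of at least 20 cells. Each point is 1 library with its 95% counting interval, and open points are sums with 0 UMIs drawn at the level of 3 counts; cartilage cluster 10 lies highest at 6594 CPM and cluster 9 lowest among cartilage clusters.

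Splitting the cartilage cells into 14 finer clusters separated the copies. The finer clusters fell into groups by how strongly they expressed the superficial cartilage list, which holds *Prg4*, the joint lubricant, and *Cilp*. In the 5 finer clusters with a superficial score above 1.5, *Serpina1a* and *Serpina1d* together made up 4.37% to 36.2% of the antitrypsin UMIs over 9 sums of library and cluster, and *Serpina1b* and *Serpina1e* made up 62.8% to 95.5%. In the 9 other finer clusters *Serpina1a* and *Serpina1d* together made up 47.0% to 89.9% over 18 sums, and *Serpina1b* and *Serpina1e* made up 9.12% to 44.6%. The ranges did not overlap. Summed over cells, the superficial group had 21.2% and 24.2% of *Serpina1a* and *Serpina1d* in replicates 2 and 3 against 80.8% and 80.5% in the remaining cartilage cells, and 4.03% against 65.4% in replicate 1. The summed level of the superficial group was 569, 359.6 and 381 CPM in replicates 1, 2 and 3, against 3841, 406 and 437 CPM in the rest. In replicate 1 that rest had 2357 CPM without cluster 10, and 517 CPM in 75 cells when 7 high cells described with that library were also left out. The cutoff of 1.5 was set after these values had been seen, and the clusters were drawn from the expression of the same cells.

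*Serpina1e* led in 1 of the superficial clusters. In finer cluster 9, led by *Angptl7* and *Cilp*, it made up 84.9% of the antitrypsin UMIs in replicate 2 (95% interval 82.8 to 86.9) and 74.9% in replicate 3 (72.4 to 77.3), which was 470 and 379 CPM of *Serpina1e*. In the neighbouring finer cluster 4, led by *Slurp1*, *Prg4* and *Tnfaip6*, it made up 5.05% and 7.22%, whereas *Serpina1b* made up 68.9% (66.8 to 71.0) and 65.9% (64.0 to 67.7), or 348 and 355 CPM. Thus the *Slurp1 Prg4* cells carried mainly *Serpina1b* and the *Angptl7 Cilp* cells mainly *Serpina1e*, in replicates 2 and 3, at totals of 505 and 539 CPM and of 553 and 506 CPM. Replicate 1 did not show this: in its 18 cells of finer cluster 9 *Serpina1b* made up 67.6% and *Serpina1e* 30.7%, with 62.6% of the UMIs in 1 cell, and in its 60 cells of cartilage cluster 4 they made up 66.0% and 32.4%. The *Gas1 Cytl1* cells of finer cluster 3 held 53.7% and 49.2% *Serpina1b* and 16.0% and 13.6% *Serpina1e*, between these.

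*Serpina1a* and *Serpina1d* together made up most of the antitrypsin UMIs in finer clusters 6, 5 and 1. The columnar list scores of these clusters were 0.970, 1.15 and 2.16, and their resting list scores were 0.502, 0.521 and -1.55. Finer clusters 10 and 14, with columnar scores of 1.30 and 1.77, had 85.9% and 72.7% of the pair in replicate 2 and 85.8% and 82.9% in replicate 3. The pair's share did not follow this score alone. Finer cluster 12 (-0.0117) had 62.5% and 84.0% in these libraries, and finer cluster 2 (-0.305) had 66.0% in both. The *F13a1 Cxcl14 Gal* cells of finer cluster 6 had the highest antitrypsin level that was seen in both large libraries, 893 CPM (867 to 919) and 705 CPM (680.1 to 729.9). Of it 50.7% and 47.4% was *Serpina1a* and 39.2% and 40.7% was *Serpina1d*. The *Rgs6 Pappa2 Lef1 Pthlh* cells of finer cluster 5 had 616 and 644 CPM with 43.1% and 48.3% *Serpina1a*. In the columnar cells of finer cluster 1 *Serpina1a* made up 47.2% and 43.6% and *Serpina1d* 36.2% and 37.8%. The share of *Serpina1e* was between 0.504% and 1.30% in these 3 clusters and libraries. The *Ibsp* cells of finer cluster 2 were mixed, with 31.5% and 25.3% *Serpina1a*, 34.4% and 40.8% *Serpina1d* and 29.5% and 28.4% *Serpina1b*.

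**Figure D3:**
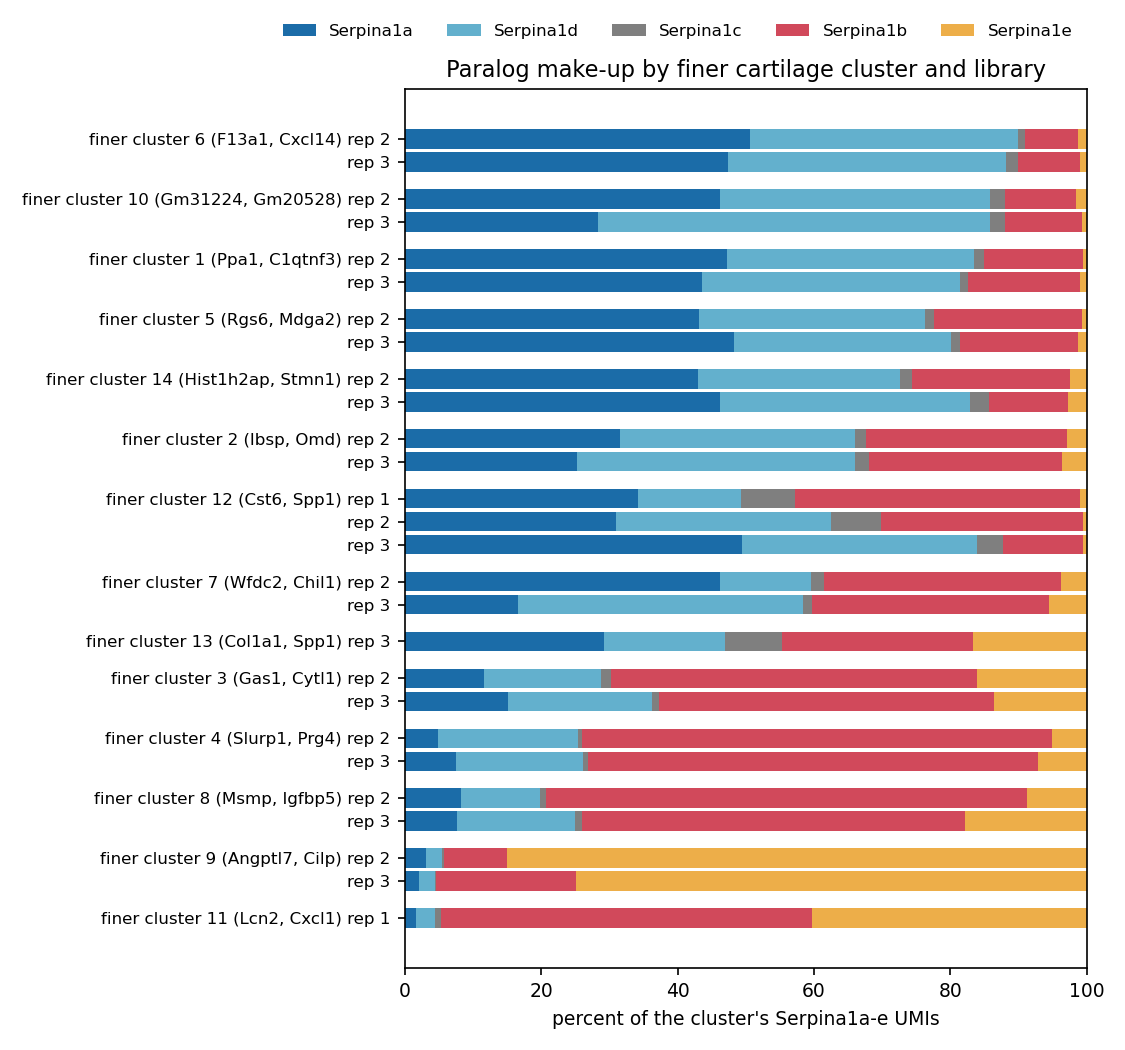
Share of each paralog in the antitrypsin UMIs (percent) of each finer cartilage cluster and library with at least 20 cells and 50 such UMIs, ordered by the mean share of *Serpina1a* and *Serpina1d*. Blue segments (*Serpina1a*, *Serpina1d*) fill most of the upper bars and red and yellow segments (*Serpina1b*, *Serpina1e*) most of the lower 9, with *Serpina1e* at 84.9% and 74.9% in finer cluster 9.

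A close neighbour of finer clusters 5 and 6 had almost no antitrypsin. This neighbour, finer cluster 7, had the highest resting list score of the 14 finer clusters, 0.910 against 0.521 and 0.502. The *Wfdc2 Chil1 Itgbl1* cells of finer cluster 7 came, like finer clusters 5 and 6, mostly from cartilage cluster 1. Their summed level was 13.9 CPM (10.3 to 18.2) in replicate 2, 20.4 CPM (15.9 to 25.6) in replicate 3 and 0 UMIs in 24 cells of replicate 1, which allows up to 31.5 CPM. Their median depth in replicates 2 and 3 was 10643 and 6446 UMIs, against 13437 and 7214 UMIs in finer cluster 6, and after thinning 1.72 ± 1.49% of the cells had a UMI (n = 3) against 25.6 ± 0.350% in finer cluster 6 (n = 2). The counting intervals of finer clusters 6 and 7 did not overlap in either library, but they leave out the spread between cells. The *Msmp Igfbp5* cells of finer cluster 8 were likewise low among the superficial cells, at 75.99 and 72.9 CPM.

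*Serpina1c* held a low share wherever it could be measured. Its share was 8.33% or less in each of the 27 sums, and it was highest in finer clusters 12 and 13. Finer cluster 12 (*Cst6*, *Spp1*, *Bmp3*), which holds the 58 cells of cluster 10, had 7.93%, 7.39% and 3.74% in the 3 libraries. In the 58 cells of cluster 10 its level was nevertheless 499.7 CPM, with a UMI in 46.6% of cells. In finer cluster 13 of replicate 3 the share was 8.33%, but 1 cell held 86.3% of the UMIs there. The windows shared with *Serpina1a* bear on this copy, and their part in its low level was not tested.

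In replicate 1 much of the antitrypsin lay in clusters that were rare or absent in the other libraries. Cluster 7 (*Lcn2*, *Cxcl1*, *Nos2*, *Mmp3*), with 374 of its 382 cells in replicate 1, had 541 CPM (512 to 571) made up of 53.7% *Serpina1b* and 40.9% *Serpina1e*. It had the highest level of the lubricant gene *Prg4* of all cartilage clusters, 133044 CPM, and 576 CPM of *Col2a1*. Cluster 10 held 38.5% of the library's antitrypsin UMIs in 58 cells, with 41.9% *Serpina1b*, 34.7% *Serpina1a*, 14.8% *Serpina1d* and 7.58% *Serpina1c*. Its cells had *Sox9* in 89.7% and *Chad*, which encodes chondroadherin, in 87.9%, but *Col2a1* in 41.4%. *Runx2*, a bone and cartilage regulator, stood at 1330.5 CPM against 97.3 CPM in the other cartilage cells of that library. The chondrocyte list score of cluster 10, -1.98, was the lowest of the 10 cartilage clusters. Against the same other cells, *Cytl1* stood at 299 against 23519 CPM and *Acan* at 727 against 1338 CPM. Of that list, *Hapln1*, *Col9a2* and *Col11a2* alone were higher in cluster 10. With cluster 10 left out, the cartilage level of replicate 1 was 865 CPM (834 to 897). Of the remaining 2987 UMIs, 778 lay in the library's 6 cells of cluster 3, 1 of which held 400, and 326 lay in 1 cell of cluster 1. Without these 7 cells as well, the level was 562 CPM (536 to 588), made up of 51.4% *Serpina1b* and 34.0% *Serpina1e*. *Igkc*, an antibody light chain of plasma cells, was seen in 86.4% of the cartilage cells of replicate 1 and in 0.23% and 0.07% of those of replicates 2 and 3, so this plasma cell RNA was in most cartilage barcodes of replicate 1. The part of free RNA in the antitrypsin of clusters 7 and 10 was not tested. As cluster 10 and 374 of the 382 cells of cluster 7 lie in replicate 1, the cell kind and the library cannot be told apart.

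The transcripts were spread very unevenly over cells. In cartilage cells 58.4%, 58.7% and 64.8% had 0 antitrypsin UMIs, while single cells held up to 400, 335 and 162. The top 1% of cartilage cells (6, 48 and 72 cells) held 28.4%, 25.9% and 27.2% of the antitrypsin UMIs, and the top 10% held 77.4%, 80.3% and 80.7%. The share was therefore nearly the same in the 3 libraries despite their different cells. For *Acan* the top 1% held 10.7%, 5.54% and 5.26% of its UMIs. Among 60, 141 and 134 single genes whose level in cartilage cells was 0.8 to 1.25 times that of the summed members, the median share in the top 1% of cells was 4.83%, 6.50% and 6.57%, and 3, 1 and 1 of them reached the antitrypsin value. Cells with at least 10 antitrypsin UMIs were deeper than cells with 0, with medians of 7084, 14598 and 8457 against 5267, 10027 and 6057 UMIs.

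**Figure D4:**
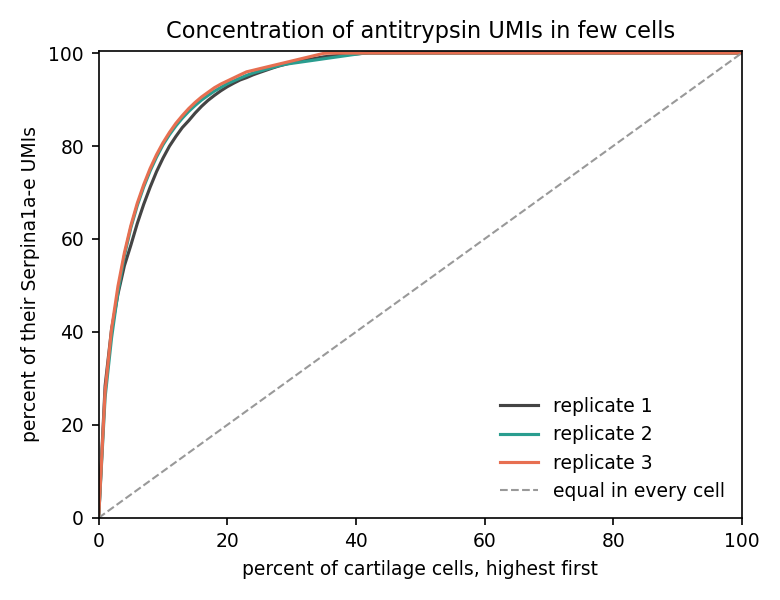
Cumulative share of the antitrypsin UMIs of cartilage cells (percent) against the share of cartilage cells (percent), taken from the cell with most UMIs down, 1 line per library. The lines nearly coincide and reach 77.4% to 80.7% at 10% of cells; the dashed line is the same number in every cell.

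High cells usually held UMIs of more than 1 copy. Of 1242 cartilage cells with at least 10 antitrypsin UMIs, 1119 had UMIs of at least 2 paralogs, where 1 UMI of another copy was enough. Free RNA and reads given to the wrong copy can add such UMIs, and their part was not tested. In 261 of the 1242 cells the leading copy held at least 90% of the UMIs. *Serpina1a* led in 450 of the 1242 cells, *Serpina1d* in 368, *Serpina1b* in 318, *Serpina1e* in 99 and *Serpina1c* in 7. The leading copy held a median of 61.9% of the UMIs in cluster 3, the columnar cells, but 91.5% in cluster 4 and 97.4% in cluster 7.

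*Serpina1a* and *Serpina1d* were mixed within single cells. In 421 cells with at least 20 UMIs of the pair, the median share of *Serpina1a* was 59.5% (quartiles 36.2 and 76.7), and in 84.8% of the cells it lay between 10% and 90%. For *Serpina1b* and *Serpina1e* 12.9% of 217 cells lay in that middle range, 155 had over 90% *Serpina1b* and 34 under 10%. The middle share was 18.4%, 11.9% and 11.5% in replicates 1, 2 and 3 for this pair, against 81.8%, 84.5% and 85.5% for *Serpina1a* with *Serpina1d*. Between *Serpina1a* and *Serpina1e* 6.06% of 264 cells lay in the middle. UMIs of both copies were found in 39.6% of the cells for *Serpina1b* with *Serpina1e* (44.7%, 31.7% and 47.4% by replicate) and in 95.2% for *Serpina1a* with *Serpina1d*. *Serpina1b* and *Serpina1e* could thus occur in 1 cell, but mostly in very unequal amounts. The 217 cells were pooled over all cartilage clusters, also those where *Serpina1e* was scarce. Its mean share was 0.879% in cluster 1 and 0.695% in cluster 3. The pairs were not split by cluster, so differences between clusters and within single cells cannot be told apart here.

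**Figure D5:**
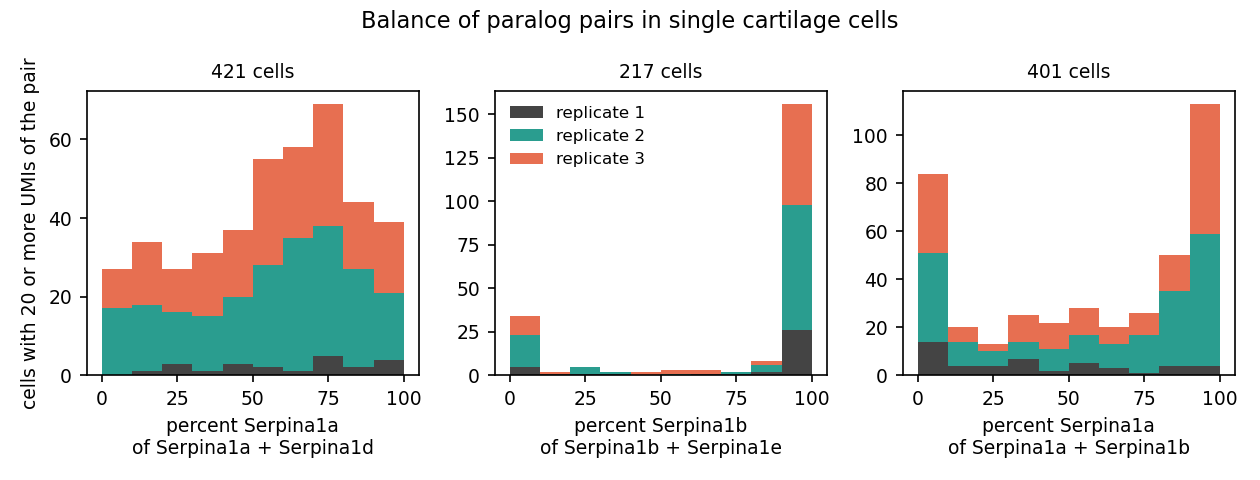
Histograms of single cartilage cells with at least 20 UMIs of a pair of paralogs, by the percent of the pair's UMIs that were of the first named, stacked by library. *Serpina1a* with *Serpina1d* (421 cells) fills the middle, *Serpina1b* with *Serpina1e* (217 cells) lies at the ends, and *Serpina1a* with *Serpina1b* (401 cells) shows both.

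Over 21 sums of library and cartilage cluster, the levels of *Serpina1a* and *Serpina1d* had a Pearson correlation of 0.96 on the log2(CPM + 10) scale, or 0.91 over 16 sums without replicate 1. *Serpina1a* with *Serpina1c* gave 0.80, *Serpina1b* with *Serpina1e* 0.66 and *Serpina1a* with *Serpina1e* -0.18, or 0.91, 0.58 and -0.29 without replicate 1. The points share libraries and depth, so these are descriptions. *Serpina1a* and *Serpina1c* also share read-length windows, and the part of such reads in their correlation was not tested. Over 53 sums of all clusters, the genes most like the summed members among 12759 were *Rflna*, which encodes refilin A (r = 0.87), *Ppp1r1b* (0.84), *Gm42809* (0.83), *Csgalnact1*, which starts chondroitin chains (0.82), *Foxa3*, a forkhead factor (0.82), *Scin* (0.81), *Nrk* (0.81), *Bcat1* (0.81), *Steap1* (0.80) and *Ncmap* (0.80). Without replicate 1 (36 sums) their values lay between 0.77 for *Csgalnact1* and 0.87 for *Scin*. *Gm42809* reached no more than 12.3 CPM in any sum, so its likeness rests on few counts. Over the 21 sums of cartilage clusters the ranking was led by *Ppp1r9b* (0.91), *Mt2* (0.90) and *Srpr* (0.90), and of the genes named here *Rflna* (0.86) alone was also among its first 10.

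The neutrophil proteases were found in other cells than antitrypsin. *Elane*, neutrophil elastase, stood at 1.45 ± 1.28 CPM in cartilage cells and 1136 ± 253 CPM in all other cells (n = 3), and it was highest in the neutrophil-like cluster at 10735 CPM. *Prtn3* and *Ctsg*, the other neutrophil serine proteases, were highest in the same cluster. *Htra1* and *Htra3*, matrix proteases, stood at 471 ± 96.9 and 123 ± 21.2 CPM in cartilage cells against 189.6 ± 69.0 and 46.6 ± 20.9 CPM elsewhere. Of the 13 proteases listed, 11 reached 50 CPM in cartilage cells or in some cluster and 4 reached it in cartilage cells, *Htra1*, *Htra3*, *Plat* and *Furin*. *Plat* did so through replicate 1, with 172 CPM against 16.8 and 21.2 CPM in the others.

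Several other serpins were found in cartilage cells. Of 30 listed serpins 29 were in the tables, 13 reached 50 CPM in cartilage cells or in some cluster and 5 reached it in cartilage cells. *Serpinh1*, the collagen chaperone, stood at 850 ± 465 CPM in cartilage cells and 403 ± 150 CPM elsewhere. *Serpine2*, protease nexin 1, stood at 2158, 410 and 523 CPM in cartilage cells and at 954, 532 and 625 CPM elsewhere, so it was higher in cartilage cells in replicate 1 alone. *Serpinb6a* had 253 ± 81.5 CPM in cartilage cells. *Serpina3n* had 214, 29.4 and 25.8 CPM and reached 50 CPM in replicate 1 alone. *Serpina1f*, the neighbour of the members on chromosome 12, had 0 UMIs in all kept cells. By contrast, *Serping1*, *Serpina3g* and *Serpina3f* were highest in the CAR-like cells, at 1954, 224 and 200.5 CPM.

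Most other listed proteins that the liver secretes were low in cartilage cells. *Alb*, serum albumin, had 4 UMIs in all kept cells, *Ttr* had 6 and *Fgb* had 16. Of 13 listed, 2 reached 50 CPM in cartilage cells: *Lcn2*, at 206 ± 337 CPM with 595 CPM in replicate 1 and 9.08 and 13.8 CPM in the others, and *Cp*, ceruloplasmin, at 136 ± 97.1 CPM (140 ± 105 CPM in other cells). *Hp*, haptoglobin, and *Trf*, transferrin, were highest in the CAR-like cells at 5273 and 976.5 CPM, and *C3* likewise at 343 CPM.

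Among the regulators known from antitrypsin expression, *Cebpb* stood at 418 ± 62.1 CPM in cartilage cells, *Stat3* at 257 ± 25.8 CPM, *Osmr*, the oncostatin M receptor, at 213 ± 12.96 CPM, *Il6st* at 116 ± 10.2 CPM and *Lifr* at 83.4 ± 3.13 CPM. *Osmr* was higher in cartilage cells than in other cells (60.6 ± 4.51 CPM) in 3 of 3 libraries and reached 743 CPM in cluster 10. *Lifr* was lower in cartilage cells in 3 of 3 libraries (117 ± 28.2 CPM elsewhere), and *Cebpb*, *Stat3* and *Il6st* had 387 ± 46.3, 246 ± 53.1 and 108 ± 5.37 CPM elsewhere. Among the listed factors that did not reach 50 CPM in any cluster, *Hnf4a* had 63 UMIs in all kept cells and *Foxa2* had 713, and they were named after their values had been seen. *Foxa2* was highest in cluster 10 at 26.0 CPM. Of 10 genes of the secretory route, 4 reached 50 CPM in cartilage cells: *Hspa5* (1206 ± 175 CPM), *Calr* (415 ± 57.9 CPM), *Lman1*, the cargo receptor that carries antitrypsin out of the endoplasmic reticulum (184 ± 50.8 CPM against 139.7 ± 10.9 CPM elsewhere), and *Canx* (184 ± 6.35 CPM against 227.5 ± 42.2 CPM). Of the 4 receptors of serpin-protease complexes, *Lrp1* stood at 309 ± 28.4 CPM in cartilage cells, against 247 ± 41.5 CPM in other cells.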

How the data were processed

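Per the labels and the study's methods, the authors aligned 91-base reads to mouse mm10 (GRCm38) with Cell Ranger (version 7.1.0) and deposited raw UMI counts per gene and cell barcode. The counting program keeps a read only where it is assigned to 1 gene. The study states a larger number of cells than the 20307 barcodes analysed here, and its cluster labels were not used. The members, gene lists and thresholds were chosen with earlier results of these data known, and the members were chosen for their level in cartilage cells, so no test was made. The labels do not say whether the libraries came from separate animals.

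A barcode was kept if it had 200 or more genes and no more than 20% mitochondrial UMIs (79, 447 and 299 removed), and the top Scrublet scores, 0.8% per 1000 cells, were removed as doublets (51, 362 and 837). Counts were scaled to 10000 per cell, logged and reduced to 30 components of 2000 variable genes without the members in scanpy (version 1.11.5), with Leiden clustering at resolution 1 for all cells and 0.5 (finer: 1) for cartilage cells. The libraries were not batch-corrected. An all-cell cluster counted as cartilage where a cartilage list scored highest, its chondrocyte list lay at least 1 log2 unit above the mean of clusters, and its leading genes did not go against it. A list score is the mean log2(CPM + 10) of the list relative to the mean of clusters. Shallow clusters (depth ratio under 0.333 to their libraries' median) needed a leading marker; that condition, which removed cluster 11, was added after member levels had been seen. Cluster 2 of all cells lay nearest inside the score limit (1.23) and the unnamed cluster 9 nearest outside it (0.525). Levels are CPM of summed UMIs and need 20 cells. Named list genes are those reaching 50 CPM in cartilage cells or any cluster. The likeness ranking was also run on simulated counts in which chosen genes had been given the members' own profile with independent noise. Such a run shows only whether a planted profile is found, so it does not bear on the genes ranked in the real data.
The leading-gene and superficial-score choices, and the cells picked out outside cartilage, were made after values had been seen. Python 3.11.15, scipy 1.17.1 and leidenalg 0.10.2 were used. A few genes of the lists are not reported here.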

Additional observations from a re-analysis of the deposited data

How the results depend on the processing

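No paired analysis was possible because the series holds 1 group. The main values were 717 CPM in cartilage cells, 34.1 CPM in other cells, 97.2% of a library's antitrypsin UMIs in cartilage cells, 39.3% of cartilage cells with a UMI, 33.0% for the leading paralog (*Serpina1a*), and 6594 and 17.0 CPM in the highest and lowest cartilage clusters. Of the recomputed values, 69 moved by less than 1 SD between libraries and kept the leading paralog, and 23 did not. For the highest cluster, found in 1 library, the limit was its counting interval. The SD of the level in cartilage cells was 535 CPM, so values from 408 to 973 CPM counted as unmoved. Some settings cannot change some values, as the resolution for cartilage cells cannot change their total. The count of 69 is therefore no measure of robustness. Without the filter on genes and mitochondrial share, 94.8% of UMIs lay in cartilage cells and the lowest cluster had 144 CPM. Without doublet removal, where 9387 cells met the cartilage rule, *Serpina1b* led with 33.2%, 56.4% of UMIs lay in cartilage cells, other cells had 301 CPM, and the clusters ranged from 172 to 7139 CPM. With the members among the variable genes the share was 91.6%, other cells had 57.96 CPM and the highest cluster 7651 CPM. The highest cluster had 7593 CPM at resolution 0.5 for all cells, 2647 CPM at resolution 1 for cartilage cells and 1033 CPM without cluster 10. Leaving out 7 high cells of replicate 1 as well, chosen after seeing the data, gave 459 CPM in cartilage cells, 660.4 CPM in the highest cluster, 94.9% of UMIs in cartilage cells and *Serpina1b* as leading paralog with 33.3%. Cartilage cells chosen by *Acan* and *Col2a1* UMIs held 94.3% of the UMIs, and 35.5% of them had a UMI. Means over cells gave 53.6 CPM in other cells, and thinned cells gave 20.6%. With clusters 9 and 11 added after seeing the data, 35.1% of cartilage cells had a UMI. Leaving out each replicate in turn gave 408 to 877 CPM in cartilage cells, 24.6 to 43.4 CPM in other cells, 96.6% to 98.2%, 38.2% to 41.4%, 31.5% (*Serpina1b*, without replicate 2) to 35.6% for the leading paralog, 533 (without replicate 1) to 6594 CPM in the highest cluster and 10.2 to 23.9 CPM in the lowest. The causes of these moves were not tested. Depth limits clusters with few cells, where a library at 0 UMIs allows up to 31.5 CPM.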
